A study of Mus musculus with 8 samples.

Results

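The comparison described here is the difference between 2 starvation responses in mouse embryonic fibroblasts (MEFs), connective tissue cells cultured from mouse embryos. For each gene, the response of wild-type (WT) cells was subtracted from the response of cells labelled as Kdm3a knockouts (KO). All 8 of the 8 libraries in the series entered, 2 in each of 4 groups, and each gene symbol was represented by its transcript with the highest total over the 8 libraries. Both genotypes were on the C57BL/6 strain and between passages 3 and 5. Cells of the fed groups (0 h) were kept in DMEM plus 10% serum, whereas the starved groups spent 12 h in DMEM that lacked glucose and held 10% dialyzed serum. The lack of glucose, the dialyzed serum and the 12 h in fresh medium cannot be told apart, and starvation below stands for all of them. The labels do not describe the knockout allele, nor whether the cells came from 1 embryo or several. They do not say either that the 2 libraries of a group came from separate cultures, and the p-values below therefore reflect no more than the spread among these libraries, which may be technical.

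KDM3A removes methyl groups from lysine 9 of histone H3, a mark of silent chromatin, and so belongs to the enzymes that can open genes for transcription. Cells that lose glucose are known to slow growth and cell division, to degrade and recycle their own components by autophagy and in lysosomes, and to turn on stress programmes. One of these is the integrated stress response, in which the transcription factor ATF4 raises genes for amino acid supply, and another is the unfolded protein response, which raises chaperones of the endoplasmic reticulum (ER). The series addresses whether Kdm3a takes part in the control of autophagy in such cells, and the difference of responses is the comparison that bears on a change in 1 genotype and not in the other.

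The libraries held 38407526 to 53602297 counts, and replicates correlated at r = 0.991 to 0.995 across genes on the log2 CPM scale, against 0.840 to 0.919 between groups. Levels are given in CPM (counts per 1000000 of the library total, scaled by the trimmed mean of M-values, TMM), and responses as log2 fold changes (starved over fed) ± SE. The 14 fibroblast markers summed to between 5494 and 17498 CPM, led by Vim except in fed WT libraries, where Col1a2 and Col1a1 stood above it. Not all of them were abundant: Lum was at 0 to 0.0463 CPM and Dcn at 1.66 to 2.57 CPM in WT libraries, and Fap was at 0 in starved WT libraries. The genotype groups also differed in sex-linked genes. Xist, the non-coding transcript that silences an X chromosome, was read at 0.939 to 1.54 CPM in WT libraries and at 869 to 1370 CPM in KO-labelled libraries, where reads of its antisense partner Tsix could be included. On the Y chromosome, Uty, Kdm5d, Eif2s3y and Ddx3y each had 618 to 2431 counts over the libraries of a WT group and 0 to 2 over those of a KO-labelled group. Genotype and sex of the cells therefore cannot be told apart in any value below.

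Most genes responded in both genotypes, and most responded by a different amount. Of 14418 genes tested, WT cells raised 5296 (36.7%) and lowered 6465 (44.8%), and KO-labelled cells raised 5678 (39.4%) and lowered 5812 (40.3%), by edgeR's quasi-likelihood test at a Benjamini-Hochberg adjusted p under 0.05. The difference of responses passed the same threshold for 9300 genes (64.5%). It was higher in KO-labelled cells for 4923 (34.1%) and lower for 4377 (30.4%), and 3166 of the called differences (22%) were at least 2-fold. Here "higher" means that the KO-labelled cells rose more or fell less. Of the differences of at least 2-fold, 2219 were higher and 947 lower in KO-labelled cells.

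Both genotypes moved in the same direction for 8416 genes and in opposite directions for 1383, of which 607 rose in WT and 776 rose in KO-labelled cells. A response was called in WT alone for 1962 genes and in KO-labelled cells alone for 1691, but the difference itself was called for 1416 and 995 of these. Across genes, which are not independent replicates, the 2 responses correlated at r = 0.628. The balance of directions rests on the scaling. With unscaled library totals the median difference over all genes moved from 0.10 to 0.29, a shift of 0.20, and 67.0% of the calls were then higher in KO-labelled cells in place of 52.9%, although 8 calls changed sign. Differences below are therefore to be read relative to that shift. List counts below stand beside 34.1% of all genes higher and 30.4% lower. With library totals they stand beside 6306 higher and 3099 lower of 14418 genes. The median response over all genes moved too, from -0.17 to -0.63 in WT and from -0.02 to -0.27 in KO-labelled cells. Counts of list members that rose or fell in a genotype were taken with TMM only and also rest on that scaling.

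To sort genes by the shape of their response, each was placed by its called responses and their 95% intervals. A gene was opposite when both responses and their difference were called and both responses were at least 2-fold with unlike signs. It counted as moving in 1 genotype only when 1 response was at least 2-fold, the interval of the other lay within 1.5-fold up and down, and the difference was called and at least 2-fold. Responses were alike when both were at least 2-fold in the same direction and the interval of their difference lay within 1.5-fold. They were graded when both were called in the same direction, the larger was at least 2-fold and the difference was called and at least 2-fold. "Only" below has this meaning, so that the other genotype may have a called response smaller than 1.5-fold. By these rules 87 genes were opposite (23 up in WT and 64 up in KO-labelled cells), 499 moved in WT only (171 up, 328 down), 186 in KO-labelled cells only (109 up, 77 down), 790 were alike (439 up, 351 down) and 1028 were graded. A further 1650 genes had a group with 6 counts or fewer over its 2 libraries and were kept apart, and 10178 genes met none of the definitions. Many opposite genes had low levels: 10 of the 64 up in KO-labelled cells and 13 of the 23 up in WT reached 10 CPM in a group. Among genes with a mean of at least 5 CPM, 10 of the 64 and 12 of the 23 kept their class. Counts depended on single libraries in 4 classes. Without WT starved replicate 1 the genes up in KO-labelled cells in the opposite class numbered 39, those up in WT only 268 and those up in KO-labelled cells only 72, and without WT starved replicate 2 the first class held 40 and the class down in KO-labelled cells only held 118.

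**Figure D1:**
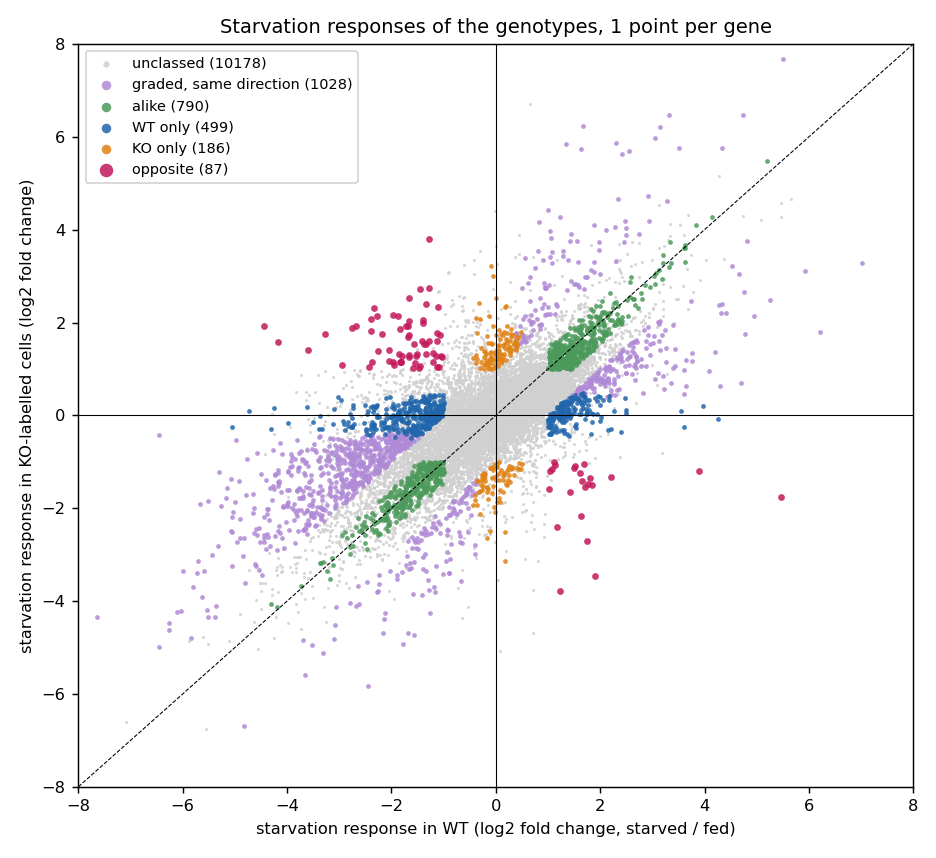
Starvation response in WT (horizontal axis, log2 fold change) against that in KO-labelled cells (vertical axis, log2 fold change) for 12768 genes, 1 point per gene, coloured by response class; the dashed line marks equal responses. The 87 opposite genes lie in the upper left and lower right quadrants, the 790 alike genes along the dashed line.

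Kdm3a itself rose in both genotypes, and far less in the KO-labelled cells. By the definitions above it belongs to the genes up in WT only, since its response in KO-labelled cells lay within 1.5-fold. It was read at 56.1 and 56.4 CPM in fed WT libraries, 176 and 185 CPM in starved WT, 55.2 and 55.4 CPM in fed KO-labelled and 65.4 and 66.7 CPM in starved KO-labelled libraries. The starved WT libraries stood above all others, and the fed libraries of the genotypes lay close together. The response was 1.68 ± 0.042 in WT and 0.26 ± 0.042 in KO-labelled cells, a difference of -1.43 ± 0.059 (edgeR, adjusted p = 1.77e-14). Counts over a whole transcript do not show the loss of an exon. Because the fed level does not separate the genotypes, each direction below rests on the labels.

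Genes that moved in opposite directions were led, among those that rose in WT, by Rtp4, a chaperone of chemoreceptors that interferon induces. Rtp4 was at 1.99 and 1.68 CPM in fed and 6.94 and 6.72 CPM in starved WT libraries, and at 88.8 and 88.3 CPM in fed and 7.78 and 8.30 CPM in starved KO-labelled libraries. The fed levels lay far apart and the starved levels close together, without overlap. Its responses of 1.89 ± 0.13 and -3.46 ± 0.069 gave a difference of -5.35 ± 0.14 (edgeR, adjusted p = 1.90e-17). Arrdc4, an arrestin-like gene known to follow glucose supply, went from 0.811 and 0.574 to 1.84 and 2.73 CPM in WT and from 32.7 and 31.9 to 10.8 and 11.5 CPM in KO-labelled cells, a difference of -3.25 ± 0.26 (adjusted p = 5.34e-10). Ptpre, a receptor-type tyrosine phosphatase, went from 1.30 and 1.56 to 5.34 and 4.42 CPM in WT and from 15.8 and 15.7 to 5.63 and 5.65 CPM in KO-labelled cells (-3.26 ± 0.21, adjusted p = 1.76e-11). Ahrr, the repressor of the aryl hydrocarbon receptor, shared that shape, with 0.602 and 0.550 CPM fed and 2.00 and 2.03 CPM starved in WT against 10.9 and 13.1 CPM fed and 5.08 and 4.27 CPM starved in KO-labelled cells (-3.16 ± 0.30, adjusted p = 7.76e-09). In these 4 genes the KO-labelled cells started from the higher fed level, and the starved levels of the genotypes were closer together than the fed levels. Wbscr17, a glycosyltransferase gene, did not share this. It rose from 10.5 and 9.38 to 35.5 and 35.8 CPM in WT and stood near the limit of detection in KO-labelled cells, at 0.275 and 0.378 CPM fed and 0.0443 and 0.170 CPM starved (-3.34 ± 0.49, adjusted p = 4.62e-06).

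The opposite genes that rose in KO-labelled cells were led by Kcnh2, a voltage-gated potassium channel. It fell from 31.8 and 30.1 to 2.46 and 3.91 CPM in WT and rose from 0.600 and 0.537 to 1.57 and 2.25 CPM in KO-labelled cells, a difference of 5.03 ± 0.30 (edgeR, adjusted p = 6.56e-12). The starved levels of the genotypes were again closer than the fed levels. Tubb3, a beta-tubulin best known from neurons, fell from 15.8 and 14.6 to 5.13 and 7.30 CPM in WT and rose from 0.810 and 0.835 to 2.17 and 2.78 CPM in KO-labelled cells (2.88 ± 0.27, adjusted p = 8.18e-09). Cirbp, an RNA-binding protein induced by mild cold, behaved otherwise, since the fed levels were near each other and starvation drew them apart. It was at 26.5 and 25.9 CPM in fed and 11.9 and 11.8 CPM in starved WT libraries, against 19.7 and 19.1 CPM fed and 48.6 and 45.7 CPM starved in KO-labelled libraries (2.42 ± 0.10, adjusted p = 1.17e-14). Hemk1, a glutamine methyltransferase gene, also ended far apart, at 2.76 and 2.60 CPM in starved WT and 14.1 and 12.8 CPM in starved KO-labelled libraries, after fed levels of 6.67 and 6.96 CPM in WT and of 4.15 and 5.17 CPM in KO-labelled libraries (2.88 ± 0.20, adjusted p = 6.74e-11). Arc, an immediate-early gene, fell from 10.2 and 10.7 to 3.38 and 3.76 CPM in WT and rose from 3.35 and 2.80 to 7.14 and 6.35 CPM in KO-labelled cells (2.67 ± 0.20, adjusted p = 2.89e-10). For each of these 10 genes, the fed and starved libraries of a genotype did not overlap. They were picked for large called responses in both genotypes, which all but fixes this, so it is no further result.

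**Figure D2:**
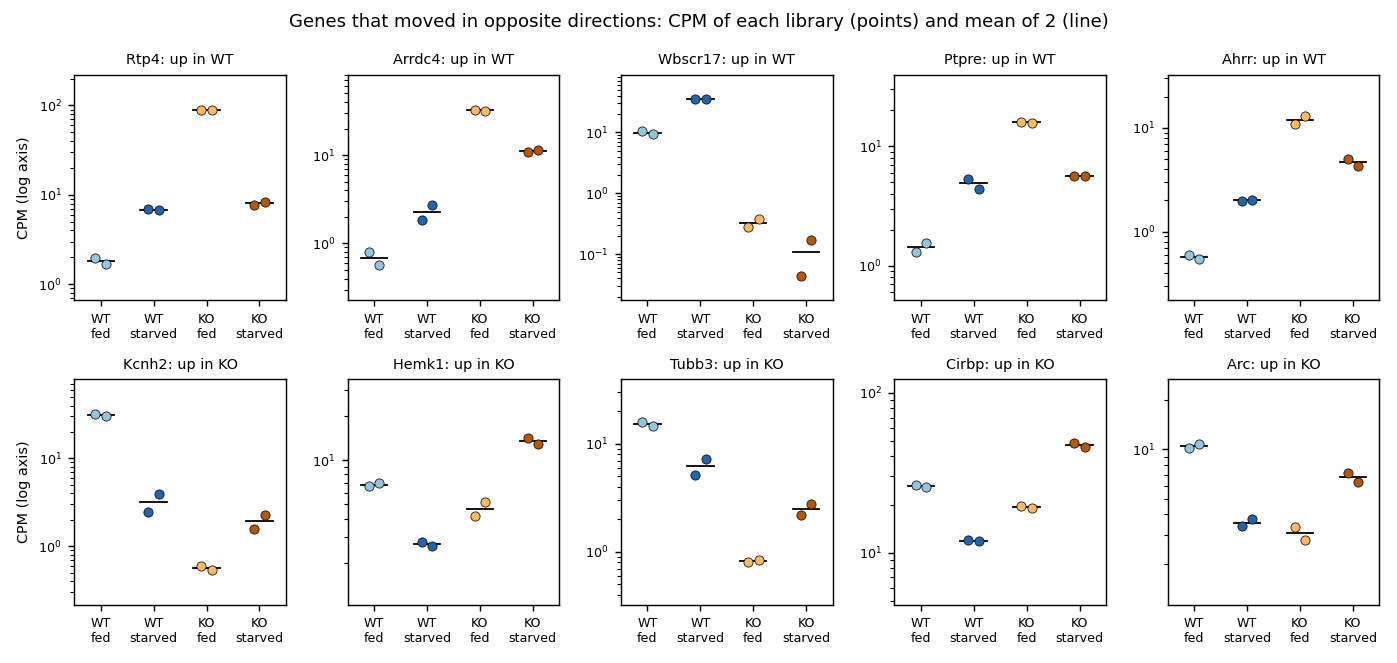
Level of the 10 leading opposite genes in each library (points) with the mean of 2 libraries (line), in CPM on a log axis, by genotype and condition. The upper row holds genes up in WT and the lower row genes up in KO-labelled cells; Rtp4 and Kcnh2 differed most between the fed groups.

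Among the genes that rose in WT only, Grem1, a secreted antagonist of bone morphogenetic proteins, went from 27.8 and 29.7 CPM in fed to 346 and 352 CPM in starved WT libraries. KO-labelled libraries held 65.6 and 67.6 CPM fed and 53.9 and 57.4 CPM starved. The WT response of 3.60 ± 0.046 was larger than that of KO-labelled cells, with a difference of -3.86 ± 0.062 (edgeR, adjusted p = 5.92e-21). Mt2, a metallothionein that binds zinc and copper, rose from 45.7 and 48.2 to 761 and 715 CPM in WT, against 159 and 155 CPM fed and 179 and 183 CPM starved in KO-labelled libraries (-3.77 ± 0.053, adjusted p = 8.30e-22). Its neighbour in the family, Mt1, also had a called rise in both genotypes and a called lower difference. Over the 2 genes the median response was 3.81 in WT and 0.42 in KO-labelled cells, and the median difference was -3.39. Fibin, a secreted protein gene, rose from 0.0463 and 0.144 to 2.33 and 1.39 CPM in WT while KO-labelled cells held 29.4 and 27.3 CPM fed and 27.0 and 27.0 CPM starved (-4.34 ± 0.42, adjusted p = 1.32e-08). Its fed WT level lay near the limit of detection, where 3 counts per library correspond to 0.0706 CPM. In Fibin the WT cells thus stayed below the KO-labelled cells in both conditions, while in Grem1 and Mt2 the starved WT libraries stood above all others.

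The genes that fell in WT only formed the largest of the 4 classes of 1 genotype. They were led by Jrk, Zmat1 and Zfp862, which encode a DNA-binding protein related to a transposase and a pair of zinc finger proteins. Jrk went from 18.8 and 18 to 0.645 and 0.454 CPM in WT and from 17.2 and 17.7 to 13.5 and 15.9 CPM in KO-labelled cells, a difference of 4.82 ± 0.21 (edgeR, adjusted p = 4.28e-14). Zmat1 went from 9.87 and 10.5 to 0.522 and 0.242 CPM in WT and from 5.04 and 5.57 to 5.87 and 5.50 CPM in KO-labelled cells (4.83 ± 0.29, adjusted p = 5.55e-12). Zfp862 went from 27.1 and 25.8 to 1.44 and 1.33 CPM and from 5.61 and 5.29 to 6.38 and 5.80 CPM in the same order (4.41 ± 0.18, adjusted p = 2.31e-14). In these 3 genes the starved WT libraries were the lowest of the 8.

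Among genes that rose in KO-labelled cells only, Myl9, a regulatory myosin light chain of smooth muscle, went from 13.1 and 15.1 to 129.8 and 131 CPM in KO-labelled cells and stood at 245 and 241 CPM in fed and 226 and 229 CPM in starved WT libraries. The difference was 3.31 ± 0.063 (edgeR, adjusted p = 8.95e-20), and the starved KO-labelled level remained below that of WT. Epha1, an ephrin receptor, rose from 1.67 and 1.41 to 7.85 and 8.82 CPM in KO-labelled cells, against 15.0 and 18.2 CPM fed and 13.6 and 12.8 CPM starved in WT (2.75 ± 0.19, adjusted p = 5.64e-11). Lrrc51 had near-equal fed levels, 1.85 and 1.53 CPM in WT libraries against 1.88 and 2.05 CPM in KO-labelled ones, and reached 11.3 and 11.3 CPM in starved KO-labelled libraries against 1.57 and 1.85 CPM in starved WT (2.52 ± 0.27, adjusted p = 5.10e-08).

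The genes that fell in KO-labelled cells only were led by Rspo2, Mfap3l and Pdgfd. Rspo2, an R-spondin that strengthens Wnt signals, held 19.8 and 18.4 CPM in fed and 21.5 and 21.8 CPM in starved WT libraries and fell from 16.0 and 18.2 to 2.13 and 1.78 CPM in KO-labelled cells (-3.31 ± 0.15; edgeR, adjusted p = 1.19e-13). Mfap3l fell from 38.0 and 36.0 to 6.45 and 6.44 CPM in KO-labelled cells, against 15.4 and 13.5 CPM fed and 16.2 and 16.3 CPM starved in WT (-2.69 ± 0.12, adjusted p = 8.54e-14). Pdgfd, a platelet-derived growth factor, fell from 3.05 and 3.06 to 0.510 and 0.472 CPM, against 13.2 and 15.8 CPM fed and 12.7 and 13.2 CPM starved in WT (-2.47 ± 0.25, adjusted p = 2.18e-08). Rspo2 differed little between the fed groups, whereas Pdgfd was lower in KO-labelled cells already when fed.

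**Figure D3:**
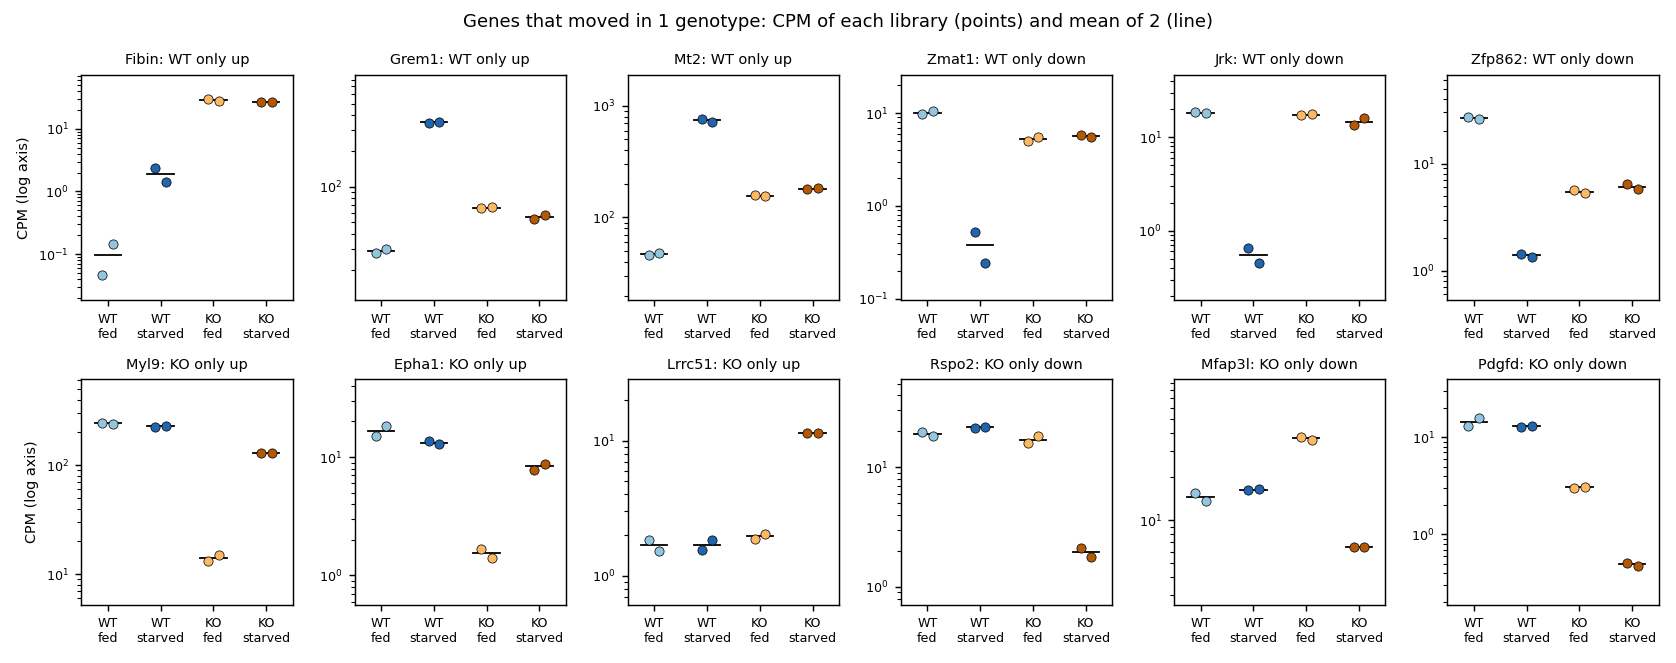
Level of the 12 leading genes that moved in 1 genotype only, in CPM on a log axis, with 1 point per library and a line at the mean of 2 libraries. The upper row holds WT-only genes (3 up, 3 down) and the lower row KO-only genes; Lrrc51 and Rspo2 started from near-equal fed levels.

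Ddit3 led the genes that rose alike. This gene, the stress transcription factor CHOP, rose from 26.5 and 28.1 to 1014 and 1001 CPM in WT and from 17.3 and 17.99 to 791 and 784 CPM in KO-labelled cells. Its responses of 5.20 ± 0.037 and 5.48 ± 0.037 differed by 0.28 ± 0.051, which was called (edgeR, adjusted p = 7.68e-05) although small beside either response. Dusp4, a phosphatase of MAP kinases, responded by 4.14 ± 0.08 in WT and 4.28 ± 0.11 in KO-labelled cells, with a difference of 0.14 (95% interval -0.20 to 0.48, adjusted p = 0.485). Sdf2l1, a cofactor of ER chaperones, responded by 3.83 ± 0.049 and 4.10 ± 0.042. Among genes that fell alike, Wisp2, a matricellular protein, responded by -4.31 ± 0.054 and -4.07 ± 0.046, and Fam211b by -3.74 ± 0.11 and -3.68 ± 0.069. The small called differences of Sdf2l1 (0.27) and Wisp2 (0.25) lost their call without WT starved replicate 1, at 0.13 and 0.13, and without WT starved replicate 2, at 0.15 and 0.10.

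Graded genes followed 1 direction with unequal size. Of 1028, 616 fell more in WT, 181 rose more in WT, 122 fell more in KO-labelled cells and 109 rose more in KO-labelled cells. Ddit4l, an inhibitor of mTOR signalling, led those that fell more in WT. It went from 17.7 and 15.1 to 0.246 and 0.121 CPM in WT and from 8.36 and 10.3 to 6.43 and 7.45 CPM in KO-labelled cells (6.05 ± 0.32; edgeR, adjusted p = 9.64e-13). Its starved WT level lay near the limit of detection, where 3 counts per library correspond to 0.0915 CPM, so the size of this difference is uncertain. Kdr, a receptor of vascular endothelial growth factor, rose from 1.92 and 2.20 to 54.8 and 52.8 CPM in WT and from 3.42 and 2.43 to 4.88 and 4.76 CPM in KO-labelled cells (-4.002 ± 0.20, adjusted p = 3.01e-13). The endothelial marker list, which Kdr belongs to and leads, summed to 53.2 to 55.6 CPM in starved WT libraries and to 2.80 to 7.21 CPM elsewhere. Kdr made up nearly all of the starved WT sum, where the next member, Vwf, stood at 0.553 and 0.242 CPM. Of its 11 members 4, Tie1, Emcn, Cldn5 and Sox17, were at 0 in each library. In bulk RNA, fewer cells of a type and less RNA per cell cannot be told apart. Hey2, a transcriptional repressor downstream of Notch, rose from 3.94 and 4.02 to 8.91 and 11.3 CPM in WT and from 0.194 and 0.358 to 15.2 and 15.9 CPM in KO-labelled cells (4.50 ± 0.28, adjusted p = 1.35e-11). Avil, an actin-binding protein of the villin family, and Rbm24, an RNA-binding protein of muscle, differed by 4.55 ± 0.26 and -4.42 ± 1.11. For Rbm24 the KO-labelled level stayed low, at 0.111 and 0.378 CPM when starved. Lrrc17 fell more in WT (3.83 ± 0.28). The signalling regulator Rgs4 fell more in KO-labelled cells, at -5.84 against -2.45, as did the histone gene Hist1h2bc, at -4.93 against -1.77. The count of Hist1h2bc may share reads with other histone genes.

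**Figure D4:**
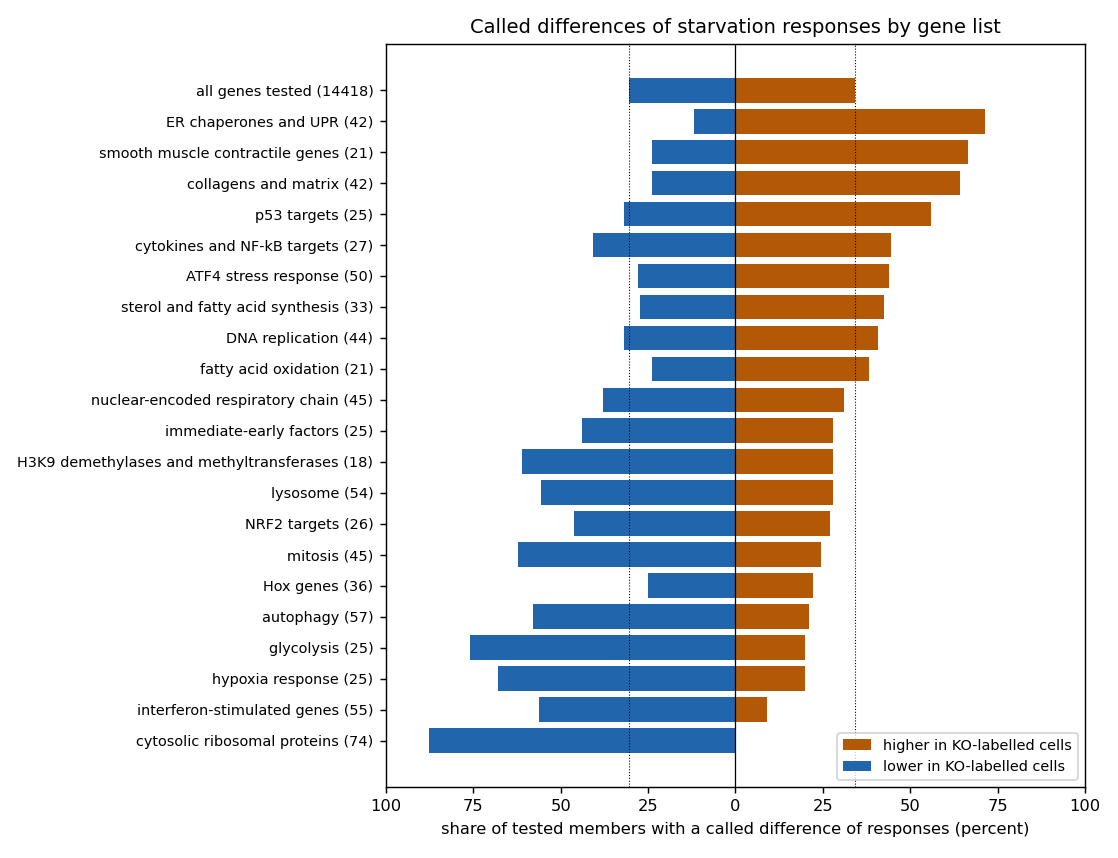
Share of the tested members of each gene list (number in brackets) whose difference of responses was called, in percent, to the right where higher in KO-labelled cells and to the left where lower; dotted lines mark the shares over all 14418 genes, 34.1% and 30.4%. ER chaperones extend furthest to the right and cytosolic ribosomal proteins furthest to the left.

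With TMM scaling, autophagy genes more often rose than fell in each genotype, and the difference was more often lower than higher in KO-labelled cells. WT raised 36 and lowered 14 of the 57 members that were tested, and KO-labelled cells raised 31 and lowered 21. The difference was lower in KO-labelled cells for 33 members and higher for 12, with a median of -0.30 against 0.10 over all genes. With unscaled library totals the counts were 25 lower and 20 higher and the median -0.10, against 0.29 over all genes. The 10 cargo receptors, which tether what is to be degraded to the growing membrane, had 9 members lower in KO-labelled cells and 0 higher, with a median of -0.83, and 9 lower and 1 higher with library totals. Bnip3, a mitophagy receptor, went from 22.2 and 21.8 to 61.7 and 62.2 CPM in WT and from 129 and 130.4 to 72.4 and 73.3 CPM in KO-labelled cells. The direction was opposite in the genotypes and the starved levels ended close together (-2.33 ± 0.062; edgeR, adjusted p = 2.06e-17). Its relative Bnip3l rose from 111 and 119 to 169 and 168 CPM in WT and fell from 142 and 142 to 115 and 116 CPM in KO-labelled cells (-0.85 ± 0.053, adjusted p = 1.23e-11). Fam134b, the receptor for the ER, rose from 15.5 and 16.0 to 141 and 145 CPM in WT and from 15.1 and 15.6 to 51.8 and 50.4 CPM in KO-labelled cells (-1.45 ± 0.074, adjusted p = 5.59e-13). Sqstm1, which encodes the ubiquitin receptor p62, rose from 389 and 394 to 1779 and 1767 CPM in WT and from 453 and 459.8 to 947 and 944 CPM in KO-labelled cells (-1.13 ± 0.035, adjusted p = 2.13e-16). Fam134b began from near-equal fed levels, and both genes ended higher in WT.

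In the core machinery the differences went both ways. Atg14, the subunit that directs the class III lipid kinase to autophagy, rose from 14.5 and 14.2 to 127 and 124 CPM in WT and from 15.3 and 14.8 to 44.9 and 46.3 CPM in KO-labelled cells (-1.53 ± 0.077; edgeR, adjusted p = 3.92e-13). The fed levels were alike and the starved level was the higher in WT. Becn1, the scaffold of the same kinase, responded by 0.91 ± 0.039 and 0.85 ± 0.037, and its difference was not called (adjusted p = 0.382). Pik3r4, the regulatory subunit, fell in WT only (-1.34 ± 0.082 against -0.15 ± 0.069). Ulk2, an initiating kinase, fell from 54.1 and 53.5 to 13.7 and 11.4 CPM in WT and from 54.8 and 55.7 to 37.9 and 36.5 CPM in KO-labelled cells (1.53 ± 0.092, adjusted p = 6.61e-12). Of the 10 conjugation genes, which attach ATG8 proteins to membrane lipid, 5 were lower, 1 higher and 4 not called. Map1lc3b, an ATG8 protein, rose from 177 and 174 to 315 and 315 CPM in WT and from 132 and 129 to 141 and 141 CPM in KO-labelled cells (-0.74 ± 0.045, adjusted p = 8.21e-12), while for Gabarap and Gabarapl1 the difference was not called. Among the 5 transcription factors of this list, which are known to raise autophagy and lysosome genes, 4 were lower and 1 higher in KO-labelled cells. Mitf rose from 3.75 and 2.25 to 6.20 and 6.84 CPM in WT and fell from 17.4 and 16.1 to 8.65 and 8.13 CPM in KO-labelled cells (-2.12 ± 0.22, adjusted p = 2.41e-08). Foxo3 responded by 1.17 ± 0.072 in WT and 0.23 ± 0.07 in KO-labelled cells, and Tfeb responded by -1.34 ± 0.10 and -2.50 ± 0.12.

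**Figure D5:**
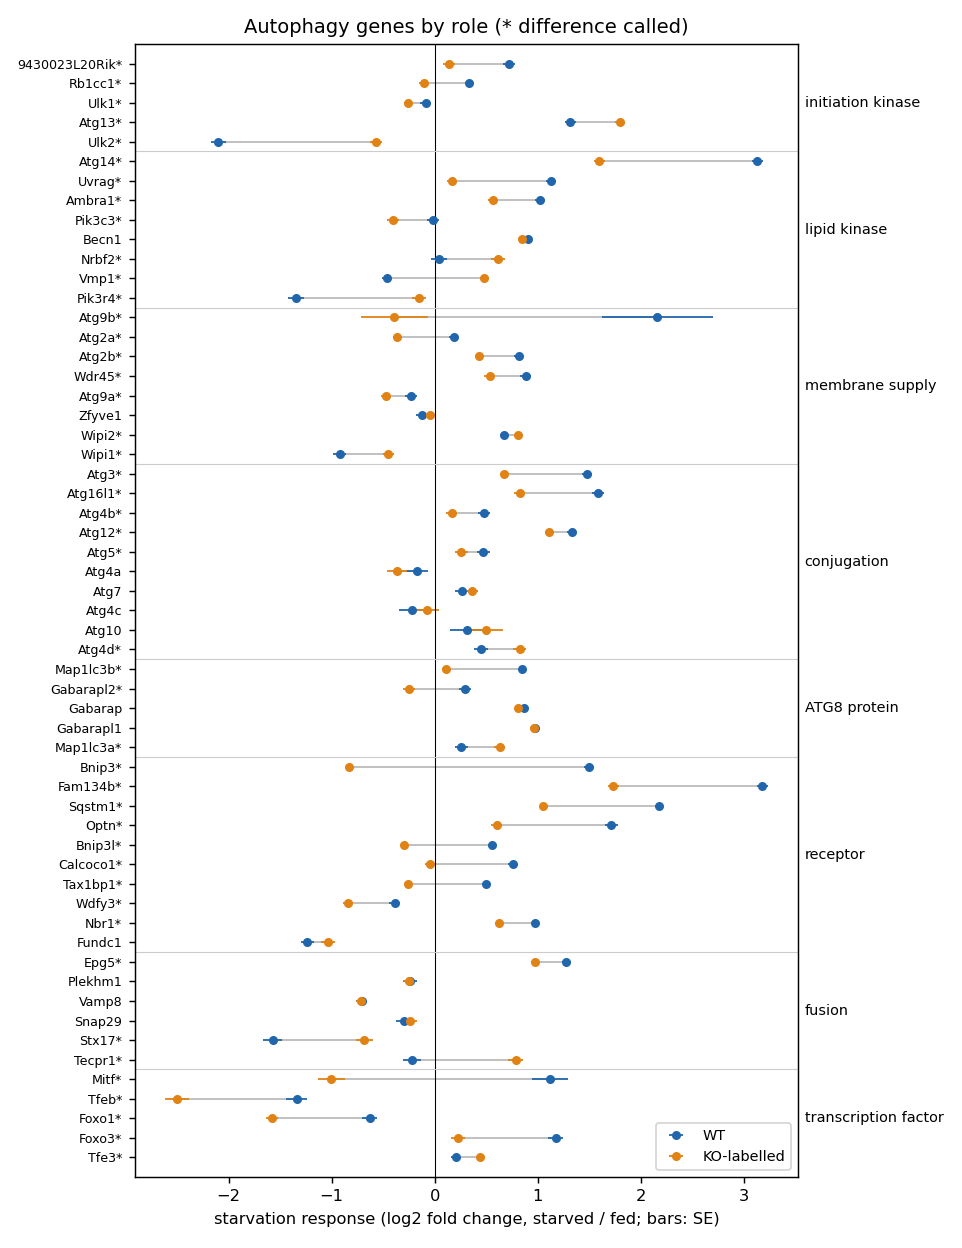
Starvation responses of the 57 tested autophagy genes in WT (blue) and KO-labelled cells (orange), as log2 fold changes with bars for SE, grouped by role; an asterisk marks a called difference. The receptors lie further to the right in WT than in KO-labelled cells, apart from Fundc1, which was not called; Bnip3 and Bnip3l changed sign.

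Of 54 lysosomal genes, 40 rose in WT and 46 in KO-labelled cells. The difference was lower in KO-labelled cells for 30 and higher for 15 (median -0.25), and with library totals for 22 and 21. The proton pump that acidifies the lysosome accounted for 12 of the lower members, out of 15 subunits. Its subunit Atp6v0b rose from 45.0 and 42.0 to 341 and 319 CPM in WT and from 53.4 and 49.4 to 172 and 170.3 CPM in KO-labelled cells (-1.19 ± 0.064; edgeR, adjusted p = 1.09e-12), and Atp6v1h differed by -1.11 ± 0.06. Lamp1, the abundant membrane glycoprotein, responded by 1.65 ± 0.028 and 0.83 ± 0.028, whereas the difference of the calcium channel Mcoln1 was not called (-0.13 ± 0.062, adjusted p = 0.0684). The 28 hydrolases were split evenly, 12 higher and 12 lower. Naglu, which degrades heparan sulphate, fell from 15.4 and 15.0 to 4.42 and 4.39 CPM in WT and rose from 26.7 and 26.7 to 53.5 and 52.9 CPM in KO-labelled cells (2.78 ± 0.11, adjusted p = 7.88e-15). Sgsh, an enzyme of the same pathway, responded by -2.77 ± 0.16 in WT and -0.25 ± 0.083 in KO-labelled cells. The letters TCACGTGA, the core of the CLEAR element that TFEB and its relatives bind, were found on either strand in a promoter of 20.5% of the 44 genes of this list with a promoter sequence and of 2.08% of all 11190 tested genes with one. A gene may have several promoters and counts here and below when any of them holds the letters. The share was 7.19% of the 139 genes with a graded rise that was larger in WT.

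Of 50 genes of the ATF4 stress response, 45 rose in WT and 44 in KO-labelled cells. The difference was higher in KO-labelled cells for 22 and lower for 14 (median 0.03), and higher for 33 and lower for 10 with library totals (median 0.23). Without WT starved replicate 1 the lower members numbered 23. Atf4 itself rose from 229 and 227 to 909 and 898 CPM in WT and from 149.7 and 149.6 to 568 and 578 CPM in KO-labelled cells, and its difference was not called (-0.05 ± 0.039; edgeR, adjusted p = 0.293). The roles within the list differed in their counts. Among 17 regulators 3 were higher and 8 lower in KO-labelled cells, while among 11 enzymes of amino acid synthesis 8 were higher and 1 lower, and among 10 transporters 7 were higher and 2 lower. With library totals the regulators were 7 higher and 6 lower, and the enzymes 9 and 0.

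Atf3, a stress-induced repressor, rose from 3.54 and 3.18 to 199 and 209 CPM in WT and from 21.7 and 21.2 to 179 and 191 CPM in KO-labelled cells, a difference of -2.81 ± 0.091 (edgeR, adjusted p = 3.89e-16). The starved levels of the genotypes lay close together. Pycr1, the last enzyme of proline synthesis, fell from 18.5 and 17.9 to 13.9 and 13.0 CPM in WT and rose from 5.75 and 6.22 to 30.1 and 27.6 CPM in KO-labelled cells (2.70 ± 0.13, adjusted p = 1.15e-13). The cationic amino acid transporter Slc7a3 rose in both, from 3.24 and 3.71 to 29.8 and 31.4 CPM in WT and from 0.778 and 0.716 to 56.1 and 55.2 CPM in KO-labelled cells (3.07 ± 0.17, adjusted p = 2.56e-12). Cebpb, a partner of ATF4, varied widely between replicates, with 271 and 114 CPM in starved WT and 126 and 82.2 CPM in starved KO-labelled libraries. Its difference was -1.80 ± 0.32 (adjusted p = 4.52e-05) and ran from -2.43 without WT starved replicate 2 to -1.17 without WT starved replicate 1.

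Atf3 and Pycr1 carry the same kind of promoter match and differed in opposite directions, which is why 100 bases of each are shown. They were chosen after their values were seen. The capitals mark TGATGNAA, where N is any base, the composite element that ATF4 and C/EBP factors bind, on either strand. It was found for 39.0% of the 41 genes of the ATF4 list with a promoter sequence and for 2.83% of all such genes. The sequences are RefSeq promoters on build GRCm38.p6, 5′ to 3′ on the gene's strand: the minus strand of chr1:191183390-191183489 for Atf3 and of chr11:120643798-120643897 for Pycr1. Each stretch lies upstream of the annotated start.
Atf3: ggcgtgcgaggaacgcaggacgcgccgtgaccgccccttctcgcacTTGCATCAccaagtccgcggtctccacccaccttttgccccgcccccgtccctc
Pycr1: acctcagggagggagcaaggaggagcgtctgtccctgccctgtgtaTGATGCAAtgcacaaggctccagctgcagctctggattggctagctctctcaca
The match is on the opposite strand in Atf3 and on the gene's own strand in Pycr1. A match is a description of the letters and not a bound site.

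Of 42 ER chaperones and other genes of the unfolded protein response, 37 rose in WT and 40 in KO-labelled cells. The difference was higher in KO-labelled cells for 30 and lower for 5 (median 0.44), higher for 35 and lower for 3 with library totals, and lower for 9 without WT starved replicate 2. Of 19 chaperones, 16 were higher and 2 lower. Pdia4, a disulphide isomerase, rose from 221 and 222 to 721 and 725 CPM in WT and from 257 and 258 to 2022 and 2027 CPM in KO-labelled cells (1.27 ± 0.035; edgeR, adjusted p = 4.51e-17). Derl2, which takes part in the removal of misfolded proteins, rose in KO-labelled cells only, from 35.8 and 33.4 to 100.2 and 102 CPM, against 28.4 and 32.1 CPM fed and 34.3 and 33.4 CPM starved in WT (1.38 ± 0.082, adjusted p = 5.05e-12). The oxidases that form disulphide bonds went separate ways: Ero1lb differed by 1.39 ± 0.10 and Ero1l by -0.57 ± 0.047. Hspa5, the chaperone BiP, responded by 3.32 ± 0.023 and 3.19 ± 0.023, a small called difference of -0.12 (adjusted p = 0.00115) that became 0.08 with library totals. Ern1, the sensor IRE1, differed by -0.50 ± 0.09.

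In glycolysis, the breakdown of glucose, the difference was lower for 19 of 25 members and higher for 5 (median -0.47, and 13 lower and 6 higher with library totals). Pfkfb3, which makes the activator of phosphofructokinase, rose from 23.7 and 23.4 to 32.5 and 38.3 CPM in WT and fell from 28.8 and 28.2 to 9.22 and 8.69 CPM in KO-labelled cells (-2.26 ± 0.11; edgeR, adjusted p = 3.58e-13). Pfkl, the liver-type phosphofructokinase, did the same, from 117 and 109.6 to 179.9 and 183 CPM and from 273 and 265 to 166 and 165 CPM (-1.38 ± 0.05, adjusted p = 2.25e-15). Ldha, a lactate dehydrogenase subunit, stood at 615 and 619 CPM in fed and 624 and 620.0 CPM in starved WT libraries and fell from 1616 and 1626 to 752 and 745 CPM in KO-labelled cells (-1.13 ± 0.035, adjusted p = 1.82e-16). The other subunit, Ldhb, fell in WT only, from 180.2 and 178 to 16.9 and 18.7 CPM, and was at 2.69 and 2.68 CPM in fed and 2.37 and 2.02 CPM in starved KO-labelled libraries. Pfkfb4 differed by 1.31 ± 0.18.

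Genes known to respond to hypoxia were lower for 17 of 25 and higher for 5 (median -0.95), and 14 and 6 with library totals. The list holds Kdm3a and Bnip3 and shares Kdm4b and Kdm4c with the list of histone demethylases. Vegfa, the vascular growth factor, rose from 42.8 and 47.0 to 364 and 364 CPM in WT and from 70.1 and 72.5 to 208 and 211 CPM in KO-labelled cells (-1.46 ± 0.056; edgeR, adjusted p = 5.76e-15). Pdk1, a kinase that restrains pyruvate dehydrogenase, fell in KO-labelled cells only, from 69.1 and 69.0 to 20.9 and 22.9 CPM, against 17.1 and 17.5 CPM fed and 14.2 and 16.6 CPM starved in WT (-1.49 ± 0.10, adjusted p = 6.43e-11). Against the majority, the collagen-modifying enzymes P4ha2 and Lox were higher in KO-labelled cells, by 1.23 ± 0.053 and 0.96 ± 0.039.

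Of 33 sterol and fatty acid genes, 26 fell in WT and 23 in KO-labelled cells, with 14 differences higher and 9 lower (median 0.13, and 18 and 5 with library totals). Scd2, a desaturase, fell from 1511 and 1491 to 79.6 and 76.0 CPM in WT and from 867 and 843 to 296 and 299 CPM in KO-labelled cells (2.75 ± 0.041; edgeR, adjusted p = 1.80e-21). The sterol genes divided, with Dhcr7 at 1.95 ± 0.23 and Nsdhl and Hsd17b7 at -0.94 ± 0.11 and -0.84 ± 0.14. Fatty acid oxidation had 8 of 21 higher and 5 lower, 10 and 2 with library totals, and 5 higher with DESeq2 size factors. The share called either way was 61.9%, against 64.5% of all genes. Cpt2, the inner mitochondrial carnitine transferase, fell in WT only (1.48 ± 0.10), Cpt1c differed by 0.65 ± 0.08, and Cpt1a was lower, at -0.53 ± 0.069. Without WT starved replicate 1 there were 8 lower, and without WT starved replicate 2 there were 4 higher and 8 lower. In the nuclear-encoded respiratory chain 14 of 45 were higher and 17 lower, and 68.9% were called either way. The members at the ends of that list were Ndufa5 at 0.89 ± 0.089, Sdhb at 0.69 ± 0.065, Atp5c1 at -0.63 ± 0.046 and Ndufs1 at -0.53 ± 0.069. The lower count of this list fell to 11 without WT fed replicate 1 or KO starved replicate 1. It rose to 26 without WT starved replicate 1 and 28 without WT starved replicate 2, when 8 and 6 members were higher. It was 5 with library totals and 27 with DESeq2 size factors.

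Each of the 74 cytosolic ribosomal protein genes rose in both genotypes. The difference was lower in KO-labelled cells for 65 and higher for 0, with a median of -0.25. This count rests on the scaling: with library totals 16 were lower and 9 higher, at a median of -0.04. The median over all genes was 0.10 with TMM and 0.29 with library totals. The list median thus lay below that of all genes under both scalings. Rps16 and Rps19, at -0.41 ± 0.043 and -0.41 ± 0.048, lay at the far end of the list. These genes have many near-identical copies in the genome, so their counts are uncertain.

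Mitotic genes fell in both genotypes, 43 of 45 in WT and all 45 in KO-labelled cells. The difference was lower in KO-labelled cells for 28 and higher for 11 (median -0.41, and 26 and 17 with library totals). Plk1, a kinase of mitotic entry, fell from 91.5 and 91.8 to 19.3 and 19.1 CPM in WT and from 167 and 163 to 12.9 and 11.1 CPM in KO-labelled cells (-1.53 ± 0.082; edgeR, adjusted p = 1.14e-12). Ccnb1, the mitotic cyclin, responded by -1.38 ± 0.037 and -2.42 ± 0.039, and Pttg1, securin, responded by -0.84 ± 0.092 and -2.10 ± 0.077. The chromosomal passenger genes Aurkb and Birc5 had the reverse order. Aurkb fell from 67.6 and 66.9 to 9.46 and 7.90 CPM in WT and from 94.8 and 97.0 to 34.1 and 33.8 CPM in KO-labelled cells (1.46 ± 0.087, adjusted p = 6.00e-12), and Birc5 differed by 1.00 ± 0.073. The letters TTTGAA of the cell cycle homology region were found in promoters of 71.1% of 38 genes of this list, against 14.7% of all genes with a promoter sequence. The share was 27.0% of the 274 genes that fell alike and 26.5% of the 98 that fell more in KO-labelled cells. For genes with a larger fall in WT it was 16.5% of 474.

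Of 44 DNA replication genes, 18 were higher and 14 lower (24 and 9 with library totals). A difference was called for 72.7% of them, against 64.5% of all genes, so these counts do not set the list apart. Cdc6, which loads the replicative helicase, fell from 27.3 and 28.4 to 8.97 and 10.2 CPM in WT and rose from 33.7 and 33.2 to 54.3 and 56.9 CPM in KO-labelled cells (2.27 ± 0.10; edgeR, adjusted p = 2.75e-14). The helicase subunit gene Mcm2 rose further in WT (-0.67 ± 0.041), Gins3 fell in WT only (1.35 ± 0.16), and Prim2, a primase subunit, differed by -0.98 ± 0.093. Of 25 p53 targets 14 were higher and 8 lower (median 0.35, and 17 and 4 with library totals). Mdm2 and Bax, a negative regulator of p53 and a pore-forming death protein, rose in WT only, with responses of 1.68 ± 0.037 and 1.40 ± 0.041, against 0.41 ± 0.034 and 0.11 ± 0.037 in KO-labelled cells. Phlda3 and Btg2 went the other way, with differences of 2.33 ± 0.075 and 1.88 ± 0.12. Cdkn1a, the cell cycle inhibitor p21, had small responses in both genotypes, 0.14 ± 0.038 and -0.07 ± 0.032.

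Oxidative stress genes of the NRF2 list were higher for 7 and lower for 12 of 26 (median -0.12), and higher for 11 and lower for 8 with library totals (median 0.08). The share called either way was 73.1%, against 64.5% of all genes. Hmox1, haem oxygenase, rose from 101.5 and 93.7 to 1990 and 1972 CPM in WT and from 145 and 149 to 775 and 776 CPM in KO-labelled cells (-1.94 ± 0.045; edgeR, adjusted p = 2.18e-18). Gclc, for glutathione synthesis, rose further in WT (-1.57 ± 0.061), and Osgin1 and Abcc4 rose in KO-labelled cells only (1.23 ± 0.16 and 1.06 ± 0.074). Immediate-early factors were higher for 7 and lower for 11 of 25 (median -0.12), and 9 each way with library totals (median 0.08). Here 72% were called either way. Maff, a small MAF factor, rose from 7.97 and 8.90 to 226 and 235 CPM in WT and from 35.8 and 37.5 to 125 and 121 CPM in KO-labelled cells (-3.02 ± 0.074, adjusted p = 5.35e-18). Dusp6, a phosphatase that restrains ERK, rose in KO-labelled cells only, from 5.61 and 4.69 to 26.5 and 26.2 CPM (2.16 ± 0.13, adjusted p = 1.17e-11). Ier3 fell in KO-labelled cells only (-1.63 ± 0.064).

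Of 55 interferon-stimulated genes, 51 fell in KO-labelled cells and 29 in WT. They encode antiviral effectors, the factors that drive them and parts of antigen presentation. The difference was lower in KO-labelled cells for 31 and higher for 5 (median -0.76, and 28 and 7 with library totals). Of 41 effectors 24 were lower and 2 higher (median -1.21), and of 5 factors 3 were lower and 0 higher (median -1.32). The 9 antigen presentation genes did not share this, with 4 lower and 3 higher and a median of 0.76. The levels behind these differences were unequal, and 17 of the 55 members had a group with 6 counts or fewer. Irf9, a transcription factor of the interferon response, held 15.1 and 16.1 CPM in fed and 15.5 and 17.6 CPM in starved WT libraries and fell from 92.3 and 93.9 to 30.9 and 30.6 CPM in KO-labelled cells (-1.68 ± 0.091; edgeR, adjusted p = 1.39e-12). For this gene the KO-labelled cells started from the higher fed level and stayed above WT after starvation. Oas3, an antiviral synthase, was near the limit of detection in WT, at 0.0695 and 0.191 CPM fed and 0.0921 and 0.182 CPM starved, and fell from 67.2 and 66.9 to 2.06 and 1.93 CPM in KO-labelled cells (-5.15 ± 0.80, adjusted p = 8.79e-06). Irf1 responded alike, with a difference of -0.14 ± 0.11 (adjusted p = 0.275). Against the majority, Parp9 and Gbp2 fell more in WT (1.71 ± 0.27 and 1.63 ± 0.29), from fed WT levels of 5.84 and 6.15 CPM for Parp9 and 5.37 and 6.22 CPM for Gbp2. Gbp, Oas and Ifit genes have close relatives whose reads may have been shared.

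Isg15, a ubiquitin-like protein, and Ifit1, an RNA-binding effector, show the promoter match most common in this list and are printed for that reason, chosen after their values were seen. Isg15 was at 0.556 and 0.838 CPM in fed and 0.798 and 0.606 CPM in starved WT libraries and fell from 198 and 201 to 55.4 and 54.2 CPM in KO-labelled cells (-1.88 ± 0.28; edgeR, adjusted p = 5.78e-06). Ifit1 went from 1.44 and 2.20 to 1.07 and 0.545 CPM in WT and from 122 and 130.3 to 9.49 and 8.47 CPM in KO-labelled cells (-2.65 ± 0.35, adjusted p = 9.03e-07). The capitals mark GAAANNGAA, the core of the element bound by interferon-regulated factors, on either strand, and overlapping matches run together. It was found for 54.8% of 42 genes of the list with a promoter sequence and for 8.43% of all such genes. Of the 66 such genes that fell in KO-labelled cells only, 10.6% had it. The RefSeq sequences are on build GRCm38.p6, the minus strand of chr4:156200843-156200942 for Isg15 and the plus strand of chr19:34640734-34640833 for Ifit1.
Isg15: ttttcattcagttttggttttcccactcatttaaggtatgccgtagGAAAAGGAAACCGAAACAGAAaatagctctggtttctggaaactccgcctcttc
Ifit1: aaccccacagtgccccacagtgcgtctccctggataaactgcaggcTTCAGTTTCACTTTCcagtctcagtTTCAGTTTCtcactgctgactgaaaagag
Each stretch holds 3 matches and lies upstream of the annotated start. Rtp4 is not in the promoter table used.

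Cytokines and targets of NF-kB were evenly divided, 12 of 27 higher and 11 lower in KO-labelled cells (12 and 9 with library totals). The share called either way was 85.2%, against 64.5% of all genes. Ptgs2, an inducible enzyme of prostaglandin synthesis, rose from 32.5 and 32.4 to 872 and 884 CPM in WT and from 149 and 149 to 932 and 952 CPM in KO-labelled cells (-2.10 ± 0.042; edgeR, adjusted p = 2.02e-19). Ccl9, a chemokine, fell from 16.0 and 15.1 to 2.67 and 2.36 CPM in WT and rose from 6.29 and 6.68 to 11.7 and 11.7 CPM in KO-labelled cells (3.48 ± 0.17, adjusted p = 2.09e-13). The chemokine Cx3cl1 fell more in WT (2.83 ± 0.14), and Cxcl10, which interferon also induces, fell more in KO-labelled cells (-2.59 ± 0.23). The list of macrophage and blood cell markers summed to 19.3 to 19.7 CPM in fed and 7.03 to 10.3 CPM in starved WT libraries, and to 21.6 to 22.2 CPM in fed and 53.8 to 54.8 CPM in starved KO-labelled libraries. Cd14 led it in fed libraries, and Cd68, at 40.9 and 40.7 CPM, in starved KO-labelled ones. Ptprc, Emr1 and Tyrobp were among the 6 of its 15 members at 0 in each library. Its part in these values was not tested.

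Of 42 collagen and other matrix genes, 23 fell in WT and 27 in KO-labelled cells. The difference was higher in KO-labelled cells for 27 and lower for 10 (median 0.56, and 28 and 5 with library totals). Col1a1, which encodes a type I collagen chain, fell from 4752 and 4572 to 240.4 and 255 CPM in WT and from 1713 and 1678 to 698 and 688 CPM in KO-labelled cells (2.94 ± 0.04; edgeR, adjusted p = 8.30e-22). Col3a1 fell from 626 and 615 to 27.0 and 29.8 CPM and from 914 and 905 to 148 and 143 CPM in the same order (1.81 ± 0.052, adjusted p = 6.11e-17). In both genes the starved level was the lower in WT. Col8a1, a short-chain collagen, rose in WT from 75.0 and 73.5 to 102 and 107 CPM and fell in KO-labelled cells from 188 and 188 to 46.0 and 42.4 CPM (-2.59 ± 0.061, adjusted p = 3.43e-18), and Lamb1, a laminin chain, rose in WT only (-2.12 ± 0.05).

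Smooth muscle contractile genes, which fibroblasts express when they take on a contractile form, were higher for 14 of 21 and lower for 5 (median 1.02, and 15 and 3 with library totals). Acta2, smooth muscle actin, was at 2199 and 2192 CPM in fed and 1787 and 1785 CPM in starved WT libraries and rose from 78.4 and 78.3 to 334 and 329.5 CPM in KO-labelled cells (2.38 ± 0.035; edgeR, adjusted p = 1.80e-21). Actg2, smooth muscle gamma-actin, rose in both, from 70.4 and 73.9 to 196 and 195 CPM in WT and from 0.778 and 0.676 to 11.6 and 10.5 CPM in KO-labelled cells (2.47 ± 0.14, adjusted p = 1.77e-12). In Acta2, Actg2 and Myl9 the KO-labelled cells, with the lower level, had the larger response, and WT remained higher in both conditions. On the CPM scale the rise of Actg2 was therefore larger in WT, the reverse of the log2 scale. Over all genes, 717 of the 9300 called differences (7.71%) had the other sign as differences of CPM. Ctgf and Cyr61, targets of the YAP coactivator on this list, were lower in KO-labelled cells (-2.38 ± 0.046 and -0.84 ± 0.04).

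Among the enzymes that write or erase H3K9 methylation, demethylases were mostly lower in KO-labelled cells, 8 of 11 with 3 higher (7 and 3 with library totals), and the 7 methyltransferases had 2 higher and 3 lower. Beside Kdm3a, Kdm4b rose from 29.1 and 27.2 to 84.9 and 85.3 CPM in WT and from 37.7 and 34.8 to 57.4 and 54.6 CPM in KO-labelled cells (-0.97 ± 0.075; edgeR, adjusted p = 3.69e-10). The paralogs of Kdm3a had smaller differences, -0.38 ± 0.055 for Kdm3b and -0.86 ± 0.06 for Jmjd1c. Phf8, which also acts on other histone marks, fell in WT only, from 29.9 and 30.6 to 13.0 and 15.8 CPM, against 32.7 and 33.7 CPM fed and 33.5 and 36.9 CPM starved in KO-labelled libraries (1.15 ± 0.11, adjusted p = 7.43e-09). Suv39h2 differed by 0.47 ± 0.17, a call that was lost without WT starved replicate 2, at 0.15, and without KO fed replicate 1, at 0.31. It was also lost with DESeq2 size factors and with DESeq2's Wald test, both at 0.37. Over the whole list 5 of 18 were higher and 11 lower, and 3 were higher without WT starved replicate 2 or with DESeq2 size factors.

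Hox genes record position along the body axis, and 18 of 36 tested members had a group with 6 counts or fewer. The difference was higher for 8 and lower for 9, and higher for 3 among genes with a mean of at least 5 CPM. Hoxb9 was at 75.5 and 78.4 CPM in fed WT and 0.0324 and 0.0994 CPM in fed KO-labelled libraries, and Hoxd11 at 1.07 and 1.56 CPM against 86.8 and 85.4 CPM. Their differences of 3.14 ± 0.51 and -1.55 ± 0.29 thus each set a genotype with an ample level against one with a low level. For Hoxd13 the difference of -1.31 ± 0.53 (edgeR, adjusted p = 0.0357) set KO-labelled libraries, at 271 and 271 CPM fed, against WT libraries at 0.278 and 0.263 CPM fed and 0.399 and 0.0606 CPM starved. It was 0.44 without WT starved replicate 1 and lost its call without WT fed replicate 1 (-1.34) or WT fed replicate 2 (-1.27). The call was also lost with library totals (-1.12), with limma-voom (-0.87) and with the transcripts of a symbol summed (-1.32).

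Of the 1650 genes with a group at 6 counts or fewer, 381 had a called difference, 305 of them higher and 76 lower in KO-labelled cells. For these a fold is a bound computed with 3 counts per library in a group without counts, which covers counting error only. Ntrk2, a neurotrophin receptor, had 100 counts over the fed WT libraries and 0 over the starved ones, at least 12.9-fold lower, with 0 and 4 counts in fed and starved KO-labelled libraries. Fcer1g, an adaptor of immune receptors, had 22 and then 0 counts in WT, at least 2.82-fold lower, and 3 and then 37 counts in KO-labelled cells. Serpind1, a protease inhibitor, had 41 counts in fed and 0 in starved KO-labelled libraries, at least 5.75-fold lower, against 2 and 13 in WT. Hao1, a glycolate oxidase, had 286 and then 10 counts in KO-labelled cells and 0 and then 3 in WT. In 573 of the 1650 genes only the starved WT group was at 6 counts or fewer, and in 110 only the starved KO-labelled group.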

How the data were processed

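RNA-seq of 8 mouse embryonic fibroblast libraries was analysed, 2 in each of 4 groups, grouped by the labels. The authors deposited raw counts per transcript, made with TopHat2 2.0.9 and bedtools on mm9, per the submitters' processing notes. The handling of strand and of reads with several matches is not given in the sources used here, and 4 columns of per-sample values were not used. Of 31055 transcripts, the one with the highest total stood for each of 23366 symbols. edgeR's filterByExpr left 14418 genes. Library totals were 38407526 to 53602297 counts.

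Counts were scaled by TMM and fitted in R 4.3.3 by the quasi-likelihood method of edgeR 4.0.16 (1 coefficient per group, 4 residual degrees of freedom, Benjamini-Hochberg threshold 0.05). Each SE was obtained by dividing the size of the log2 fold change by the root of its F statistic. The fit and the classes were tested on simulated data. Alternatives were library totals, DESeq2 1.42.0, limma 3.58.1 (voom), other filters and limits, a replicate block and leaving out each library. Deviations of equally numbered replicates correlated at -0.0088 in WT and -0.019 in KO-labelled libraries.

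Named genes had at least 10 CPM in a group, no group at 6 counts or fewer, and a symbol that was no clone or predicted name. They were the 5 opposite genes of each direction and 3 alike genes of each direction with the largest smaller response, the 3 genes of each direction with the largest difference in 1 genotype only, the 2 largest differences in each graded class, and the 2 most positive and 2 most negative called differences of each gene list. Kdm3a and sex-linked genes were added, as were the 2 largest differences each way among genes with a low group. Further list members were chosen after their values were seen. Some genes that the rule names are not reported here. The members and the 21 gene lists were chosen with earlier results of these data known. Promoters (250 bases before to 50 after the start) came from RefSeq, GRCm38.p6, another build than mm9, and 11238 tested genes matched, 831 by an older symbol. They correspond to 11190 distinct promoter symbols, over which motif shares were taken.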

Additional observations from a re-analysis of the deposited data

Results flagged for a closer look

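Each gene below was singled out because the edgeR quasi-likelihood test of the difference of starvation responses (KO minus WT, log2) passed an adjusted p of 0.05. Among opposite genes, Rtp4 (-5.35), Arrdc4 (-3.25), Wbscr17 (-3.34), Ptpre (-3.26) and Ahrr (-3.16) rose in WT. The opposite genes that rose in KO-labelled cells were Kcnh2 (5.03), Hemk1 (2.88), Tubb3 (2.88), Cirbp (2.42) and Arc (2.67). In WT only, Fibin (-4.34), Grem1 (-3.86) and Mt2 (-3.77) rose, and Zmat1 (4.83), Jrk (4.82) and Zfp862 (4.41) fell. In KO-labelled cells only, Myl9 (3.31), Epha1 (2.75) and Lrrc51 (2.52) rose, and Rspo2 (-3.31), Mfap3l (-2.69) and Pdgfd (-2.47) fell. Graded rises differed for Rbm24 (-4.42), Kdr (-4.002), Avil (4.55) and Hey2 (4.50), and graded falls for Ddit4l (6.05), Lrrc17 (3.83), Rgs4 (-3.39) and Hist1h2bc (-3.15). Kdm3a differed by -1.43.

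The same test called members of each gene list. The count of members with a called difference was 45 for autophagy, 45 for lysosome, 36 for the ATF4 response, 35 for ER chaperones, 24 for glycolysis and 22 for hypoxia. It was 23 for sterol and fatty acid synthesis, 13 for fatty acid oxidation, 31 for the respiratory chain, 65 for ribosomal proteins, 32 for DNA replication and 39 for mitosis. It was 22 for p53 targets, 19 for NRF2 targets, 18 for immediate-early factors, 36 for interferon-stimulated genes and 23 for cytokines. It was 37 for matrix, 19 for contractile genes, 16 for H3K9 enzymes and 17 for Hox genes. Over all genes 64.5% of differences were called, so a called difference alone sets no list apart.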

How the results depend on the processing

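Of the 9300 called differences, 8022 remained called with the same sign with library totals (8 took the other sign), 8712 with DESeq2 size factors, 8374 with DESeq2's Wald test, 9094 with limma-voom and 8253 to 8667 without single libraries. Of 102 recomputed counts of calls 1 moved by over 1.5 times, as did 38 of 240 class counts and 37 of 714 list counts. Of 1948 recomputed differences of named genes 27 lost their call and 1 changed sign. Without starved WT replicate 1 the difference of Hoxd13 was 0.44 (edgeR, adjusted p = 0.713), in a range of -2.24 to 0.44 without single libraries.

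With library totals, 3397 genes rose in WT, and the classes held 79 (WT only up), 222 (alike up), 573 (alike down), 74 (graded up, larger in WT) and 997 genes (graded down, larger in WT). Membership changed as well. The genes that kept their class were 51 of 171 (WT only up), 40 of 109 (KO only up), 30 of 77 (KO only down) and 170 of 439 (alike up). The share kept ran from 29.8% for WT only up to 100% for graded down, larger in WT. At a mean of at least 5 CPM, 15 opposite genes rose in WT and 12 in KO-labelled cells, and 71 had a graded rise larger in KO-labelled cells. With intervals inside 2-fold, WT only held 272 up and 674 down, KO only 194 up and 162 down, alike 679 up and 725 down, and graded up, larger in WT 104. With a narrower interval limit the WT only, KO only and alike classes held 89 and 94, 36 and 24, and 196 and 104. With a 4-fold size limit, opposite genes numbered 0 up in WT and 3 up in KO-labelled cells, WT only 12 up and 58 down, KO only 9 up and 5 down, alike 56 up and 63 down, and graded 29 and 33 up and 163 and 27 down (larger in WT, then KO). Without single libraries, opposite genes up in KO-labelled cells ran from 39 to 65, WT only up from 164 to 268, KO only up from 72 to 114 and KO only down from 68 to 118. Stricter or wider limits change these counts by construction, and for the other settings the cause was not tested.

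With the replicate number as a block, 4832 differences were higher and 4322 lower and 9133 calls remained. Xist, at 0.51, lost its call (adjusted p = 0.0568), as it did with DESeq2, limma-voom, summed transcripts and the 5 CPM filter, without KO fed or KO starved replicate 2, without WT fed replicate 1 (0.27, adjusted p = 0.415) and without WT starved replicate 2 (0.066, adjusted p = 0.848). The numbers do not pair the libraries, and no class count moved by over 1.5 times.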

Other observations

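Zinc finger genes, many of which encode DNA-binding repressors, were looked at after Zfp862 and Zmat1 had been seen among the genes that fell in WT only. Of 342 tested genes whose symbols begin with Zfp or Zkscan, 216 fell and 76 rose in WT, and 141 fell and 108 rose in KO-labelled cells. The difference was higher in KO-labelled cells for 182 and lower for 56, with a median of 0.57 against 0.10 over all genes. Over all genes 34.1% of differences were higher and 30.4% lower. These counts were not recomputed with library totals. The median response was -0.70 in WT and -0.11 in KO-labelled cells.

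The letters TGACNNNGC, the core of the antioxidant response element, were found on either strand in promoters of 42.9% of 21 genes of the NRF2 list and of 16.6% of all genes with a promoter sequence. The letters TGACGTGG of an unfolded protein response element were found for 0 of 37 genes of the ER list and for 1.04% of all genes. At so low a share a list of this size may hold none, so the count does not set the list apart. No other element of that response was searched. The letters TGACGTGG share ACGTG with the CLEAR letters.

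Summed levels of the neural marker list were 620 to 629 CPM in fed WT, 323 to 327 CPM in starved WT, and 60.2 to 60.8 CPM in KO-labelled libraries. Stmn2 led the list in WT, at 215 to 377 CPM, and stood at 0.399 to 0.600 CPM in KO-labelled libraries, where Map2 led. Adipocyte markers summed to 19.0 to 20.2 CPM in fed WT and 40.1 to 43.7 CPM in starved WT libraries, and to 69.8 to 70.7 and 48.2 to 50.3 CPM in fed and starved KO-labelled libraries. Fabp4 led this list except in starved WT libraries, where Pparg was at 32.0 and 31.4 CPM and Fabp4 at 8.87 and 6.00 CPM. Epithelial markers, led by Krt19, summed to 21.5 to 25.9 CPM in WT and 2.56 to 4.63 CPM in KO-labelled libraries. Cartilage and bone markers, led by Spp1, summed to 890 to 898 CPM in fed and 605 to 626 CPM in starved WT libraries. In KO-labelled libraries they summed to 503 to 511 CPM fed and 314 to 325 CPM starved. Among them Col2a1 was at 253 and 244 CPM in fed and 110 and 113 CPM in starved WT libraries, against 0.177 to 0.713 CPM in KO-labelled ones.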
